A study of Mus musculus with 6 samples.

Results

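The genes described are 48 mouse genes that write or remove methyl groups on histone lysines other than H3K9, together with subunits of the Polycomb complexes. They were chosen by name, with no cut on a measured value, though earlier results of these data were known. The list held 49 symbols for enzymes of H3K4, H3K27, H3K36, H3K79 and H4K20 methylation and for Polycomb subunits. Setd8 is an older symbol of Kmt5a, so both name 1 gene, and the 48 genes were all found among the 21006 symbols of the counts table. RNA was sequenced from TdTomato-positive cells sorted from branchial arches, the swellings that build the jaws, face and throat, at E11.5. The 3 DKO (double knockout) libraries carried Ehmt1f/f and Ehmt2f/f. The 3 control libraries carried Ehmt1+/+ and Ehmt2+/+. Both groups also carried Rosa26 TdTomato/+ and Wnt1-cre, so the control cells express the recombinase and the reporter as well. Wnt1-cre acts in the dorsal neural tube and the neural crest that leaves it, so other cells of the embryo keep both genes and sorted cells need not all be arch mesenchyme. The labels call the replicates biological, but do not say whether a library is 1 embryo, a pool or part of a litter, so p-values measure only the spread between these libraries.

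Histone lysine methylation marks the state of a gene. H3K4 methylation, written by the KMT2 and SETD1 enzymes of the COMPASS complexes, lies at active promoters and enhancers. H3K36 and H3K79 methylation lie over transcribed genes. Polycomb repressive complex 2 (PRC2) writes H3K27 methylation through EZH1 or EZH2, and Polycomb repressive complex 1 (PRC1) ubiquitylates histone H2A through RING1 or RNF2, and both keep developmental genes silent. In the cranial neural crest, PRC2 holds Hox and other patterning genes silent and EZH2 is needed for facial bone and cartilage. Ehmt1 and Ehmt2 encode GLP and G9a, the enzymes for H3K9 with 1 or 2 methyl groups that are targeted here. In human cells both proteins were purified in a complex that also holds RING1, RNF2 and PCGF6. The comparison of DKO with control asks here whether transcripts of the other histone methylation systems differ when GLP and G9a are targeted.

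Total counts lay between 23414466 and 44538260 per library. Levels are in CPM, read counts relative to the library total after TMM scaling (trimmed mean of M-values), and are given in the order of replicates 1 to 3. The level of Ehmt2 was 124, 118.6 and 140.4 CPM in the DKO libraries, against 347, 359.7 and 358 CPM in the controls (log2 fold change -1.47, SE 0.08, edgeR adjusted p = 0.000208). That of Ehmt1 was 144, 133 and 168 CPM in the DKO libraries, against 250.03, 259.7 and 268 CPM in the controls (-0.81, SE 0.10, edgeR adjusted p = 0.00476). Reads outside the deleted exons still count, so these levels do not measure intact transcript. All 12 markers of neural crest and arch mesenchyme were present, with at least 840 counts each in every library, and their summed level was 1765 to 2108 CPM in DKO and 1985 to 2364 CPM in control libraries. Markers of other cells were also found. Their summed level was 932 to 1023 CPM in DKO and 1016 to 1219 CPM in control libraries for 9 neuron markers, and 12.5 to 169 CPM in DKO and 57.5 to 104 CPM in controls for 6 erythroid markers. It was 34.9 to 142 CPM in DKO and 36.2 to 118.99 CPM in control libraries for 6 neural tube markers, and 27.3 to 30.4 CPM in DKO and 13.5 to 17.8 CPM in controls for 6 endothelial markers. Of the 6 endothelial markers all were positive in log2 fold change and 1 was called, Tie1, at 8.05 ± 0.889 CPM in DKO libraries against 0.965 ± 0.146 CPM in controls (SD, n = 3 each). Of the neuron markers 8 of 9 were negative and 1 was called, Pou4f1 (-0.45, SE 0.09, edgeR adjusted p = 0.0306). Glia markers summed to 240.1 to 249 CPM in DKO and 247 to 271 CPM in controls, and melanocyte markers to 10.9 to 20.1 CPM in DKO and 12.9 to 17.3 CPM in controls. Of the 4 melanocyte markers tested, 2 were positive and 2 were negative in log2 fold change, and 1 was called. The called marker was Tyr, at 2.56 ± 0.552 CPM in DKO libraries against 0.775 ± 0.316 CPM in controls (SD, n = 3 each). It was 1.70 higher in DKO on the log2 scale (SE 0.34, edgeR adjusted p = 0.0392), while Dct and Pmel were at -0.36 and -0.48. Immune markers (7.95 to 12.8 CPM in DKO, 7.90 to 10.9 CPM in controls), epithelial markers (16.4 to 25.5 CPM in DKO, 20.1 to 23.3 CPM in controls) and muscle markers (9.96 to 13.8 CPM in DKO, 10.46 to 12.5 CPM in controls) were low and overlapped. No marker of these lists was at 0 in all 6 libraries, and the part of other cells in the values below was not tested. DKO replicate 3 stood apart from the other DKO libraries. On the first principal component over all tested genes (46.6% of the variance) it lay at -12.3, against -31.8 and -37.0 in the other DKO libraries and 19.1 to 31.2 in controls, and on the second (24.2%) it lay at -38.8, beyond every other library. It also had the highest sums of the 6 libraries for erythroid, neural tube, epithelial, immune and muscle markers. Its sum for neural crest and arch mesenchyme markers was the lowest. For neuron, glia, melanocyte and endothelial markers its sum was neither the highest nor the lowest. Counts of the Y-linked genes Kdm5d and Uty were 0 or 1 in DKO replicate 3 and in control replicate 2, and 926 to 2712 in the other 4 libraries.

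Levels per length set the members in order of abundance (CPM per kb of the transcript with the longest coding sequence). Kmt5a, which monomethylates H4K20, stood highest at 112 ± 6.38 CPM per kb in DKO and 131 ± 14.04 CPM per kb in control libraries (SD, n = 3 each). The 3 most abundant PRC2 genes followed and did not differ among themselves beyond their spread. Rbbp7 stood at 105 ± 2.40 CPM per kb in DKO and 115 ± 10.2 CPM per kb in controls, Ezh2 at 99.2 ± 7.67 in DKO and 112 ± 11.3 in controls, and Rbbp4 at 101 ± 5.10 in DKO and 110.04 ± 12.5 in controls. The catalytic subunits were far from equal, since Ezh1 stood at 4.40 ± 0.487 CPM per kb in DKO and 4.17 ± 0.875 CPM per kb in control libraries. Per library the ratio of Ezh2 to Ezh1, per kb, was 25.7, 19.1 and 23.6 in DKO, against 20.2, 26.3 and 37.9 in control libraries, so the groups overlapped.

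Among PRC1 genes Cbx2, whose protein reads H3K27 trimethylation, was the most abundant chromobox member, at 76.5 ± 5.39 CPM per kb in DKO libraries, against 77.99 ± 5.49 CPM per kb in controls. Cbx8 stood at 6.41 ± 1.14 CPM per kb in DKO and 5.85 ± 0.396 in controls, and Cbx7 at 0.900 ± 0.0738 in DKO and 0.621 ± 0.166 in controls. The ligase gene Rnf2 exceeded Ring1, with a ratio per kb of 2.85, 2.42 and 3.35 in DKO, against 3.59, 4.73 and 3.77 in control libraries. The lowest members of all were Cbx7 and Phf19, a Tudor-domain accessory subunit of PRC2, which stood at 0.456 ± 0.0530 CPM per kb in DKO and 0.690 ± 0.0598 in controls. The same gene led each role in both genotypes. The most abundant genes of the H3K4 group were Kmt2e and Setd1a. Those of H3K36 methylation and related SET enzymes were Setd5 and Nsd2, and of the H3K27 demethylases it was Kdm6b.

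**Figure D1:**
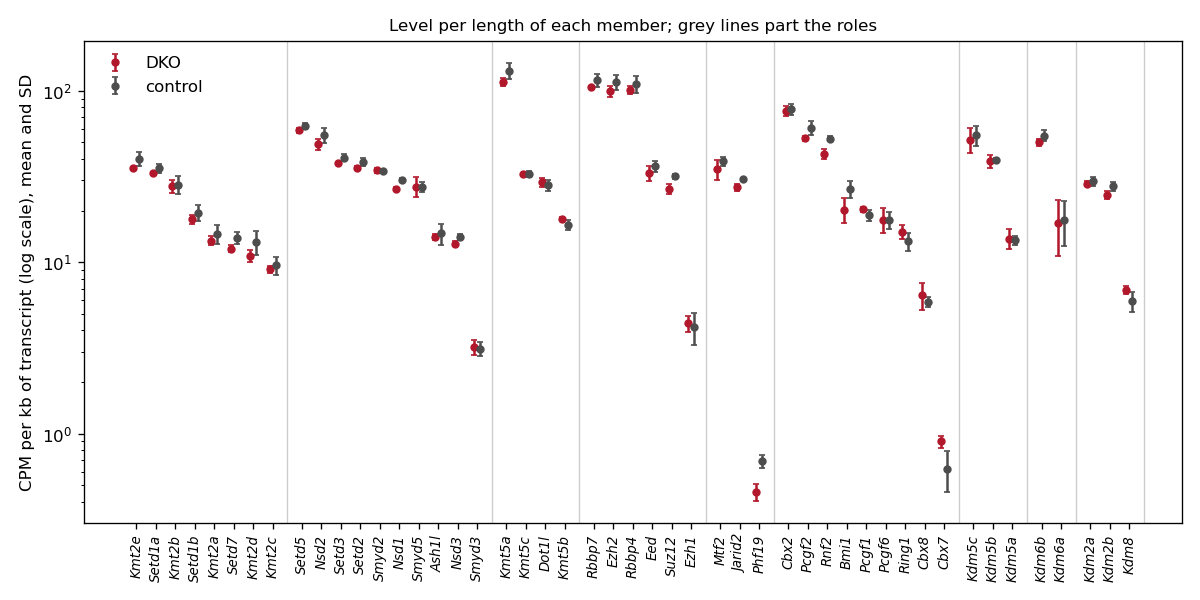
Mean level of each of the 48 genes in CPM per kb of transcript on a log axis, with the SD over 3 libraries, DKO in red left of control in grey; grey lines part the roles. Levels span from 0.456 CPM per kb for Phf19 in DKO to 131 CPM per kb for Kmt5a in controls, and the 2 genotypes lie close together for nearly every gene.

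No histone methylation or Polycomb gene was called as changed between DKO and control libraries. Of 48 members, all of which passed the filter on low counts, 0 were higher and 0 were lower in DKO at an adjusted p below 0.05 (edgeR quasi-likelihood test, 2-sided, Benjamini-Hochberg over 14555 tested genes), where 3.01% of all tested genes were called. At an unadjusted p below 0.05 there were 9 members, all lower in DKO, which is 18.8% of them, against 20.9% of all tested genes. With the DESeq2 Wald test 1 member was called. The smallest edgeR adjusted p was that of Rnf2, at 0.0742. In whole sorted tissue, fewer cells of a type and less RNA per cell cannot be told apart, and this holds for all values that follow.

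The intervals show how large a change these libraries would still allow. For 44 of 48 members the 95% interval of the fold change lay within a 1.5-fold change in either direction. The 4 exceptions were Phf19 (fold of DKO over control between 0.472 and 0.927), Bmi1 (0.614 to 0.933), Cbx7 (0.973 to 2.14) and Kdm6a (0.582 to 1.63). Standard errors of the log2 fold change ranged from 0.06 to 0.30 with a median of 0.09, and the lowest count of any member in any library was 43, for Cbx7 in control replicate 3. Such an interval is for 1 gene and is not adjusted for the number of genes.

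**Figure D2:**
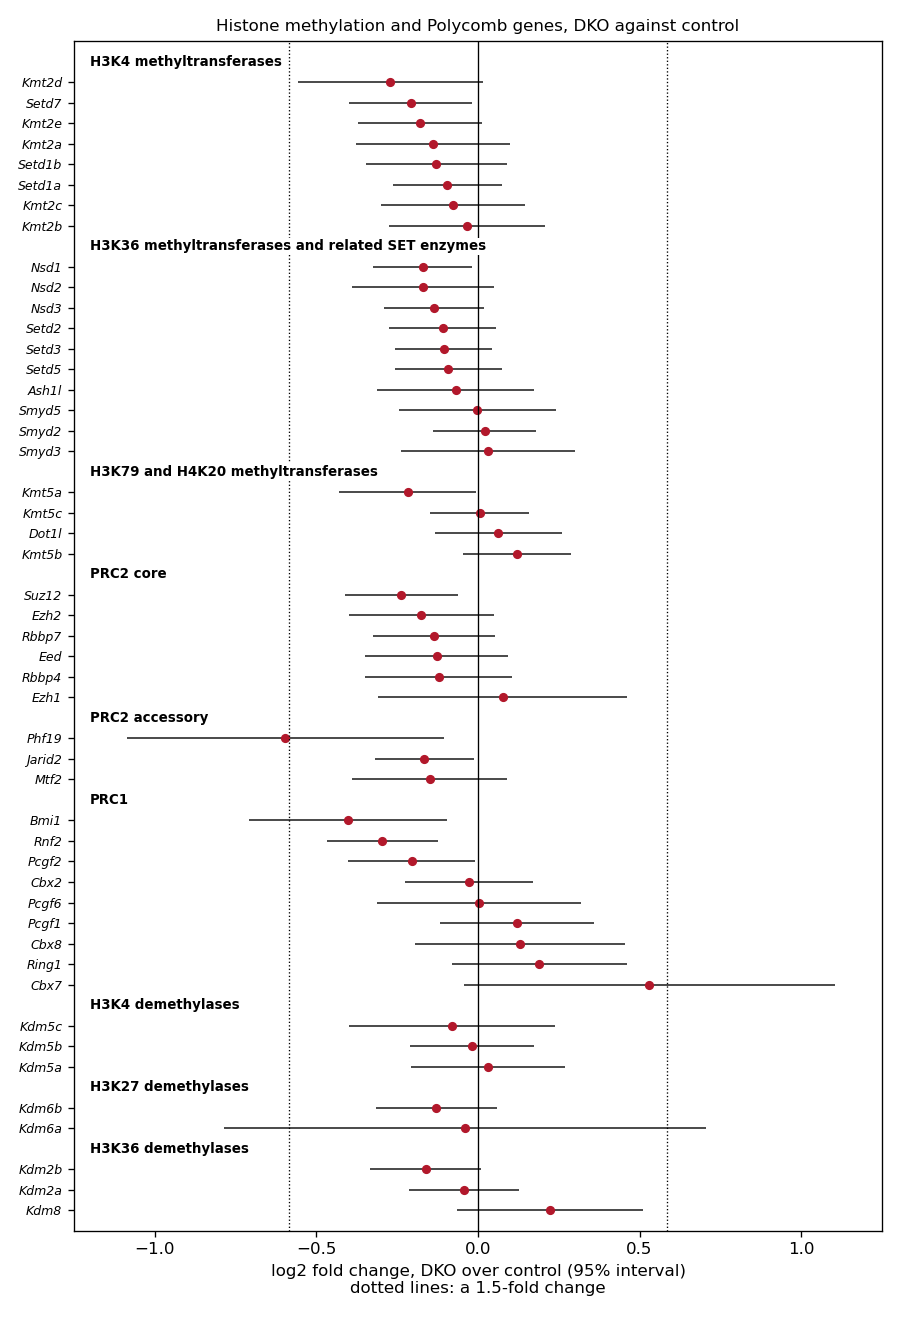
Log2 fold change of DKO over control for each of the 48 genes, by role, with its 95% interval as a line; dotted lines mark a 1.5-fold change. Intervals of 44 genes lie between the dotted lines, and the widest belong to Kdm6a, Cbx7 and Phf19.

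Most members had slightly negative values, as did abundant genes in general. The log2 fold change was below 0 for 35 of 48 members, with a median of -0.10, while it was below 0 for 51.2% of all tested genes, with a median of -0.01. The members are abundant, with a median level of 149 CPM against 31.99 CPM for all tested genes. Among the 3046 tested genes with a mean of at least 100 CPM, 80.7% had negative values and the median was -0.11. Of the members at that level, 30 of 33 were negative, with a median of -0.13. Libraries of the 2 groups did not overlap for 12 members (25%) that were lower in DKO, against 12.7% of all tested genes and 24.9% of those with at least 100 CPM, and for 2 members that were higher, against 14.5% of all tested genes. With scaling by library size alone, the median of all tested genes was 0.07 and that of the members -0.02, with 27 of 48 below 0. The sign of the small values of the list thus depends on the scaling.

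**Figure D3:**
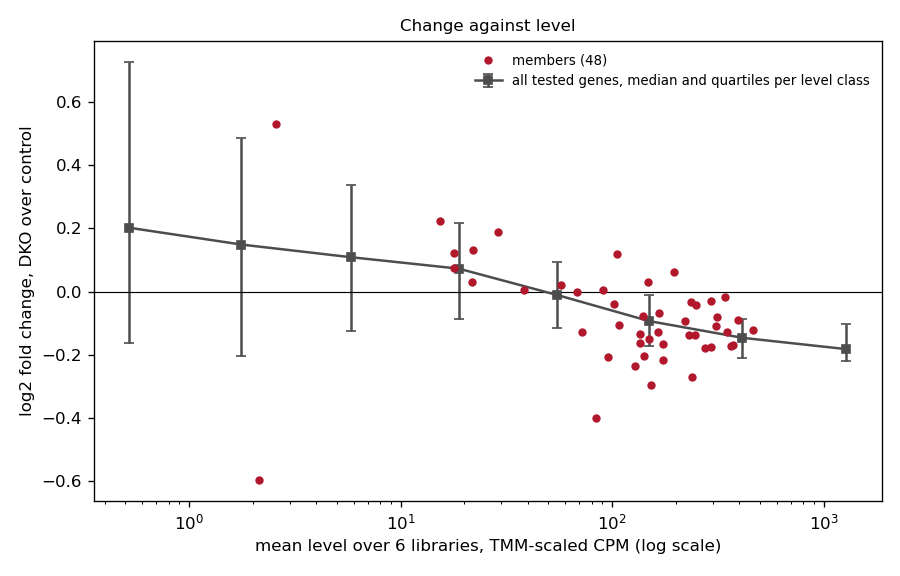
Log2 fold change of DKO over control against the mean level over 6 libraries (log axis). Red points are the 48 members; grey squares are medians of all tested genes in classes of level, with quartiles as bars. The grey medians go from 0.20 below 1 CPM to -0.18 above 1000 CPM, and most red points lie around that line.

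All 8 genes of the H3K4 group had negative log2 fold changes, from -0.27 to -0.03, and 0 were called. Setd7, which monomethylates H3K4 in vitro and also many proteins that are not histones, measured 85.99, 86.6 and 93.5 CPM in DKO, against 105, 109 and 92.98 CPM in controls. Control replicate 3 lay below DKO replicate 3, so the groups overlapped (log2 fold change -0.21, SE 0.08, edgeR adjusted p = 0.197). Kmt2d, the main H3K4 monomethyltransferase of enhancers and the Kabuki syndrome gene in humans, measured 196, 224 and 229 CPM in DKO, against 282, 288 and 213 CPM in controls. Here too control replicate 3 fell inside the DKO range (log2 fold change -0.27, SE 0.12, edgeR adjusted p = 0.252). Kmt2e, a family member without shown methyltransferase activity, did not overlap, with 259.6, 255 and 261 CPM in DKO against 311, 306 and 262 CPM in controls, but the nearest libraries were almost level (log2 fold change -0.18, edgeR adjusted p = 0.256). The other abundant gene of the role, Setd1a, measured 209, 218 and 215 CPM in DKO, against 234, 241 and 212 CPM in controls. The remaining members were Kmt2a, Kmt2b, Kmt2c and Setd1b, with log2 fold changes of -0.14, -0.03, -0.08 and -0.13.

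Of the 10 genes of H3K36 methylation and related SET enzymes, 8 were negative and 0 were called. Nsd1, an H3K36 dimethyltransferase and the Sotos syndrome gene in humans, measured 341, 337 and 350.02 CPM in DKO, against 397, 379.6 and 381 CPM in controls. The groups did not overlap, and the gap between them was a small share of the level (log2 fold change -0.17, SE 0.07, edgeR adjusted p = 0.192). Its paralogs Nsd2 and Nsd3 had log2 fold changes of -0.17 and -0.14. Nsd2 overlapped, with 345, 326 and 377 CPM in DKO against 355, 394 and 429.6 CPM in controls, and Nsd3 did not, with 129, 134 and 125 CPM in DKO against 148, 142 and 137 CPM in controls. Setd2, which writes H3K36 trimethylation, averaged 297 ± 5.80 CPM in DKO libraries, against 320.3 ± 18.1 CPM in controls (SD, n = 3 each). The difference was -0.11 on the log2 scale (SE 0.07, edgeR adjusted p = 0.413). Setd5, the most abundant gene of the role per length, measured 380.4, 372 and 397 CPM in DKO, against 398, 427 and 399 CPM in controls, and Setd3, best known as the actin histidine methyltransferase, 104, 106 and 102 CPM in DKO against 108, 118 and 111 CPM in controls. Neither pair of groups overlapped, and neither gene was called (adjusted p = 0.489 and 0.376). Ash1l, Smyd2, Smyd3 and Smyd5 lay between -0.07 and 0.03.

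The 4 genes of H3K79 and H4K20 methylation had both signs and 0 were called. Dot1l, the H3K79 methyltransferase, was at 0.06 (SE 0.08). Kmt5a, the H4K20 monomethyltransferase of dividing cells, measured 163, 150.2 and 168 CPM in DKO, against 174, 209.5 and 176 CPM in controls. The groups did not overlap, and control replicate 2 was the highest library (log2 fold change -0.22, SE 0.09, edgeR adjusted p = 0.224). Kmt5b, which adds further methyl groups to H4K20, had the opposite sign without overlap, with 108, 109 and 113 CPM in DKO against 107, 93.9 and 102 CPM in controls (0.12, SE 0.07, adjusted p = 0.370). Kmt5c, its paralog, measured 90.8, 89.5 and 92.3 CPM in DKO, against 89.1, 94.9 and 87.8 CPM in controls, and overlapped (0.00, SE 0.07).

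The PRC2 core had 5 negative genes of 6 and 0 called. Suz12, the scaffold subunit that the complex needs to stay assembled, measured 113, 112 and 127 CPM in DKO, against 133, 138 and 144 CPM in controls. Every DKO library lay below every control library (-0.24 on the log2 scale with SE 0.07, adjusted p = 0.134 in edgeR). The catalytic gene Ezh2 measured 276, 256 and 298 CPM in DKO, against 278, 320.1 and 339 CPM in controls, and the groups overlapped (-0.18, SE 0.10, adjusted p = 0.334). Eed, which reads the mark, had -0.13, the histone-binding genes Rbbp4 and Rbbp7 had -0.12 and -0.14, and Ezh1 had 0.08. Rbbp4 measured 469, 443 and 424.4 CPM in DKO against 424.3, 498 and 532 CPM in controls, and Rbbp7 241, 231 and 234 CPM in DKO against 233, 265 and 278 CPM in controls, so both overlapped. In control replicate 1 these 2 genes were as low as in DKO. Genes of G2 and mitosis had mostly the same sign as the core, with 15 of 16 negative, 0 called and a median of -0.11. Their summed level was 3676 to 3957 CPM in DKO and 4010 to 4525 CPM in control libraries. Of all tested genes with a mean of at least 100 CPM, 80.7% were also negative, with a median of -0.11. The part of the G2 and mitosis genes in the PRC2 values was not tested.

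Of the accessory subunits, Jarid2, which guides PRC2 to developmental genes, measured 162, 157 and 172 CPM in DKO, against 182.2, 181.7 and 187 CPM in controls. The 3 controls lay within 5 CPM of one another and above all DKO libraries (log2 fold change -0.17, SE 0.07, edgeR adjusted p = 0.204). Phf19 had the largest fold of the list at a very low level, with 1.67, 1.53 and 1.92 CPM in DKO against 2.64, 2.33 and 2.77 CPM in controls. The groups did not overlap, and the standard error was wide (-0.60, SE 0.21, edgeR adjusted p = 0.167). Mtf2, a Polycomb-like subunit that binds CpG islands, overlapped between the groups, with 140.3, 123 and 161 CPM in DKO against 148, 165 and 159 CPM in controls (-0.15, SE 0.10, adjusted p = 0.438).

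Among the 9 PRC1 genes 4 were negative, 5 were positive and 0 were called, with a median of 0.00. Rnf2, the main H2A ubiquitin ligase of PRC1, measured 137, 128 and 146 CPM in DKO, against 168, 175 and 163 CPM in controls. It had the smallest p of the list, and every DKO library lay below every control library (-0.30 on the log2 scale with SE 0.07, adjusted p = 0.0742 in edgeR). The span of the gene, introns included, overlaps that of Trmt1l on the other strand, and overlap of exons was not examined. The strand setting of the counting is not given in the sources used here. Bmi1, also known as Pcgf4, represses the Cdkn2a locus through PRC1. It measured 66.5, 64.9 and 86.6 CPM in DKO, against 101, 104 and 83.5 CPM in controls, and DKO replicate 3 lay above control replicate 3 (-0.40, SE 0.13, edgeR adjusted p = 0.146). Pcgf2, its paralog Mel18, measured 126, 133 and 134 CPM in DKO, against 154, 164 and 135 CPM in controls, so the groups did not overlap but the highest DKO and the lowest control library were almost level (-0.20, SE 0.08, edgeR adjusted p = 0.217).

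The other PRC1 genes lay at or above 0, except Cbx2. Cbx7, a chromobox gene of low level here, measured 3.07, 2.79 and 3.29 CPM in DKO, against 2.55, 2.29 and 1.47 CPM in controls. The groups did not overlap, but the interval of the fold reached from 0.973 to 2.14 (log2 fold change 0.53, SE 0.25, edgeR adjusted p = 0.265). Ring1, the paralog of Rnf2, measured 30.5, 33.7 and 27.8 CPM in DKO, against 29.7, 23.5 and 27.4 CPM in controls (0.19, SE 0.12, adjusted p = 0.383). The difference between the 2 ligase genes was not tested. Ring1 lies 0.874 Mb from Ehmt2 on chromosome 17, and Bmi1 and Phf19 lie 6.10 and 9.97 Mb from Ehmt1 on chromosome 2. Whether nearness to a floxed allele bears on their values was not tested. Cbx2 measured 311, 270.2 and 292 CPM in DKO, against 273, 312 and 305 CPM in controls, and overlapped (-0.03, SE 0.08). Cbx8, Pcgf1 and Pcgf6 were at 0.13, 0.12 and 0.00.

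Rnf2, Suz12 and Bmi1 had the 3 smallest p-values, and their promoters are shown for that reason. Each holds 250 bases before and 50 after the transcription start, 5′ to 3′ on the gene's strand, from RefSeq on GRCm38.p6, with CG dinucleotides in capitals.
Rnf2, chr1:151500942-151501241, minus strand: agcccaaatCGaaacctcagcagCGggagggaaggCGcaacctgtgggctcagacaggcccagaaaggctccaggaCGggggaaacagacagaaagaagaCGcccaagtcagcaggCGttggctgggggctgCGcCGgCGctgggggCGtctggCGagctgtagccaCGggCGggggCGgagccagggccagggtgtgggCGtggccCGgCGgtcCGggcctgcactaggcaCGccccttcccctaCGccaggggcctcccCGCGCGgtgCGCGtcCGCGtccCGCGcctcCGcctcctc
Suz12, chr11:79992856-79993155, plus strand: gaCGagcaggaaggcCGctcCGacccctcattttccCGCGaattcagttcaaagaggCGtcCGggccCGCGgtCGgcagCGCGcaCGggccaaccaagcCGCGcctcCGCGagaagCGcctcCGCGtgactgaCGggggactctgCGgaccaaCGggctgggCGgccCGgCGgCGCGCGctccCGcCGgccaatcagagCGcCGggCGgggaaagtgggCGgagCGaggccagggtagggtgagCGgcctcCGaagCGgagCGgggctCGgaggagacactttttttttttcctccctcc
Bmi1, chr2:18676768-18677067, plus strand: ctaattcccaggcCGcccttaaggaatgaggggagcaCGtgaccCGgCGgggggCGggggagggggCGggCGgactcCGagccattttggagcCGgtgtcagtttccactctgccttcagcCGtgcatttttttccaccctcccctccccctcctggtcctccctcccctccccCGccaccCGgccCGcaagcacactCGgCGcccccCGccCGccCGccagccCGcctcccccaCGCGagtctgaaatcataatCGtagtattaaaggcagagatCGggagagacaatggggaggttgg
They hold 30 (Rnf2), 41 (Suz12) and 23 (Bmi1) CG dinucleotides. RefSeq gave 44 promoters for 35 members, with a median of 27.5 CG per 300 bases, against 7 over all 32851 promoters. The members' promoters are thus mostly rich in CG, the feature that the CXXC domains of KMT2A, KMT2B, KDM2A and KDM2B bind when it is not methylated. The E-box CACGTG, which reads the same on both strands and is bound by the MAX partners of the PCGF6 complex, was in 5 of the 44 (11.4%), against 7.15% of all promoters. The E2F core GCGGGAA, searched on both strands and not overlapping the E-box, was in 3 (6.82%), against 4.60% of all promoters. Bmi1 holds the first motif and Suz12 the second, while Rnf2 holds neither in this window. A match is no shown binding site.

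**Figure D4:**
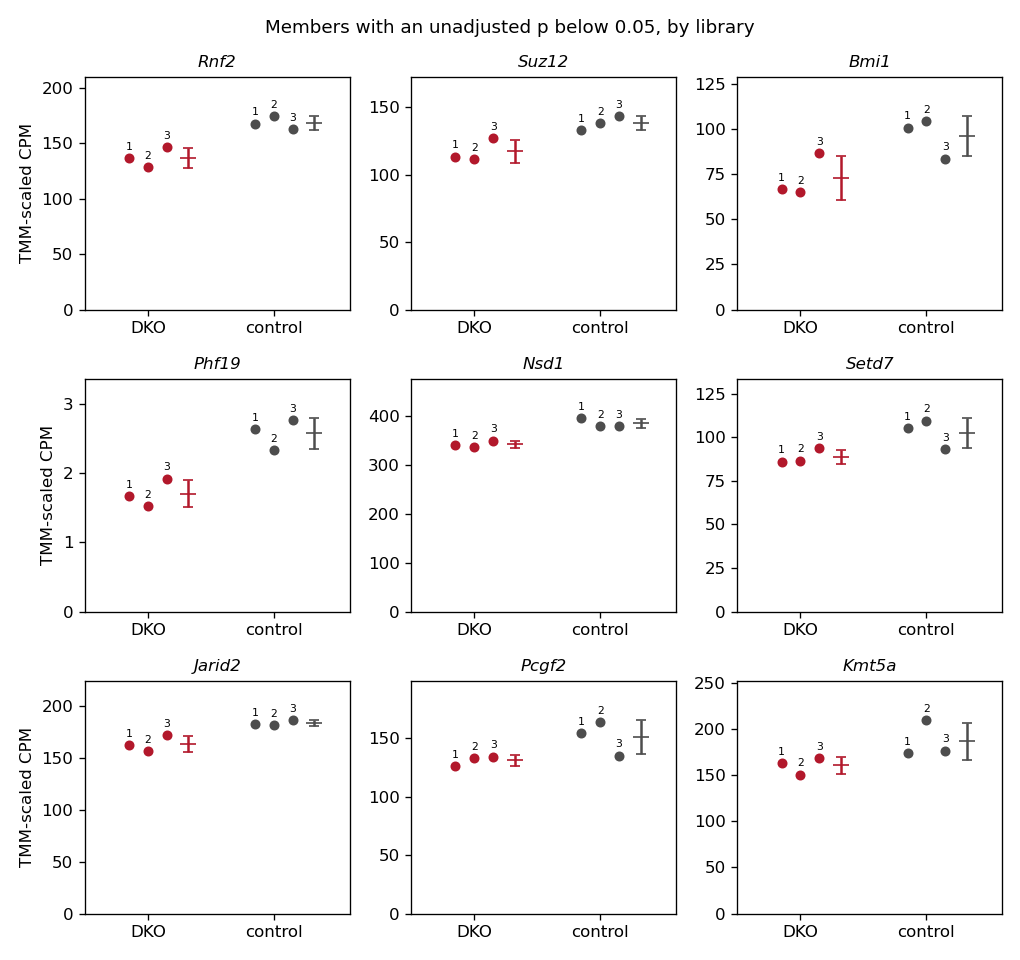
TMM-scaled CPM of the 9 members with an unadjusted p below 0.05, in order of p, with DKO on the left and control on the right; numbers are replicates, bars are the mean and SD of 3 libraries, and axes start at 0. In each panel DKO replicate 3 is the highest DKO library, and 7 of the 9 genes show no overlap between the groups. The 9 were picked by p from these same libraries, so the lack of overlap is no separate support for a change. Of all tested genes, 12.7% were lower in DKO without overlap.

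The number of called members changed when DKO replicate 3 was left out. In all 9 members with an unadjusted p below 0.05 it was the highest DKO library. The same held for 61.6% of the 1440 tested genes that were lower in DKO at that p. Over all members it was the highest DKO library in 31 of 48 (64.6%), against 38.7% of all tested genes. Without it, 3 members were lower (edgeR adjusted p below 0.05), where 3.49% of tested genes were called lower, and 0 were higher. They were Bmi1 (log2 fold change -0.55, SE 0.10, adjusted p = 0.0262), Rnf2 (-0.35, SE 0.07, adjusted p = 0.033) and Suz12 (-0.30, SE 0.07, adjusted p = 0.0442). Leaving out any other 1 library gave 0 called members, with the smallest adjusted p between 0.100 and 0.267. With DKO replicate 3 and control replicate 2 both left out, 0 members were called (smallest edgeR adjusted p = 0.0764, for Bmi1). DESeq2 called Rnf2 with all 6 libraries (-0.30, SE 0.08, adjusted p = 0.0101), where 3.31% of tested genes were called lower. The marker lists whose sums were highest or lowest in this library are named above, and their part in these values was not tested.

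The demethylases among the members had 0 called genes of 8. The H3K4 demethylases Kdm5a and Kdm5b were at 0.03 and -0.02, and Kdm5b, the most abundant per length after Kdm5c, measured 368, 313 and 332.3 CPM in DKO against 331.6, 339 and 356 CPM in controls. Of the H3K36 enzymes, Kdm2b, which also brings a variant PRC1 to CpG islands, measured 126, 135 and 122 CPM in DKO, against 136, 153 and 140.2 CPM in controls, without overlap (log2 fold change -0.16, SE 0.07, edgeR adjusted p = 0.254). Its paralog Kdm2a measured 247, 237 and 255 CPM in DKO, against 257, 266 and 237 CPM in controls, and overlapped. Kdm8 was at 0.22 (SE 0.12, adjusted p = 0.340). Kdm6b, an H3K27 demethylase induced by many signals, measured 325, 323 and 351 CPM in DKO, against 376, 382 and 334 CPM in controls, with overlap (-0.13, SE 0.08, adjusted p = 0.390).

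The 2 X-linked demethylase genes varied within each genotype more than between them. Kdm6a, the H3K27 demethylase UTX, measured 83.4, 77.05 and 143 CPM in DKO, against 87.2, 139 and 86.3 CPM in controls. Kdm5c, an H3K4 demethylase, measured 277, 276 and 366 CPM in DKO, against 292, 372 and 308 CPM in controls. In both genes DKO replicate 3 and control replicate 2 were the highest of their groups, and these are the 2 libraries without Y-linked counts. Kdm6a and Kdm5c are known to escape X inactivation in mice and have a Y-linked paralog. Uty, the paralog of Kdm6a, had 1 count in DKO replicate 3 and 0 in control replicate 2, which allows up to 0.128 CPM there, and 24.95, 26.1, 37.4 and 33.4 CPM in the other 2 DKO and other 2 control libraries. Kdm5d, the paralog of Kdm5c, had 0 counts in both, which allows up to 0.0693 CPM in DKO replicate 3 and 0.128 CPM in control replicate 2, and 45.5, 55.3, 60.7 and 40.7 CPM in the other 2 DKO and other 2 control libraries.

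Summed over both paralogs, the libraries came closer. Kdm6a and Uty together gave 18.8, 18.0 and 24.0 CPM per kb in DKO, against 21.9, 23.4 and 20.9 CPM per kb in control libraries. Kdm5c and Kdm5d together gave 52.6, 53.7 and 62.1 CPM per kb in DKO, against 57.1, 63.1 and 57.3 CPM per kb in controls. In the comparison of DKO with control the log2 fold change of Kdm6a was -0.04 with the widest standard error of the list (0.30, edgeR adjusted p = 0.958), and that of Kdm5c was -0.08 (SE 0.14, adjusted p = 0.787). Without the 2 libraries that lack Y-linked counts, the values were -0.11 (SE 0.08) for Kdm6a and -0.12 (SE 0.08) for Kdm5c, and neither was called (adjusted p = 0.438 and 0.430). The sex of the embryos is not in the labels, and its part in these values was not tested.

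The promoters of these 2 genes, taken and marked as above, are shown because their transcripts varied together across the libraries.
Kdm6a, chrX:18162325-18162624, plus strand: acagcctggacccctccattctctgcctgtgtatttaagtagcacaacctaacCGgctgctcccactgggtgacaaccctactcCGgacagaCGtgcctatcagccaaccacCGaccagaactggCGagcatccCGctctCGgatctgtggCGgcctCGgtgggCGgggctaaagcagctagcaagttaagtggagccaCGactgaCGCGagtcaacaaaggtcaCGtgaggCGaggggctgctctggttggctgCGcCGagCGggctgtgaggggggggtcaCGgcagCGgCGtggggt
Kdm5c, chrX:152232977-152233276, plus strand: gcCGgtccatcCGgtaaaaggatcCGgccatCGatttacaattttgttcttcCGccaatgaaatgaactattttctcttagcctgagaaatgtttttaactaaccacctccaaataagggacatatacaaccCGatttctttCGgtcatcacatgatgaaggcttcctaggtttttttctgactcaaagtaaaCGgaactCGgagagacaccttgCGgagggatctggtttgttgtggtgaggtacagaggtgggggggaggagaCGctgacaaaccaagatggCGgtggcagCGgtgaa
Kdm6a has 21 CG dinucleotides and holds CACGTG once, and Kdm5c has 13 and holds neither motif in this window.

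**Figure D5:**
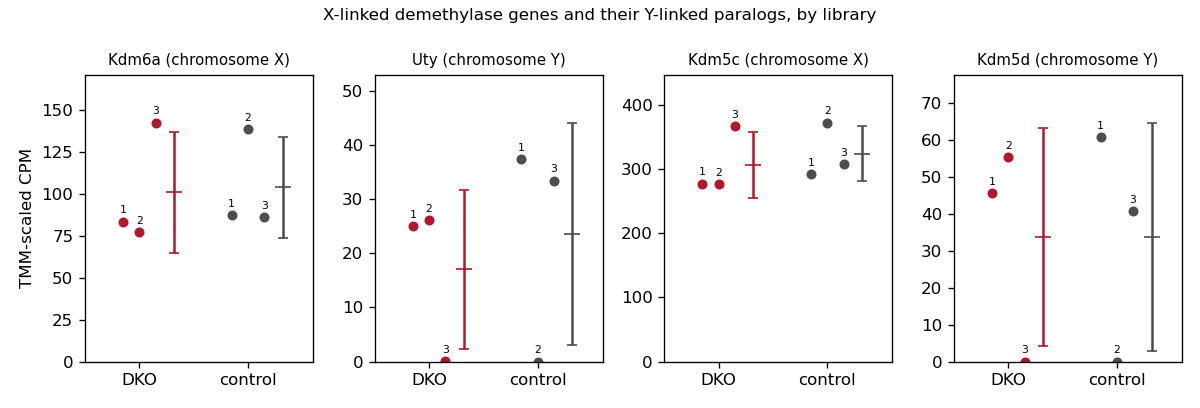
TMM-scaled CPM of Kdm6a and Kdm5c on the X chromosome and of their Y-linked paralogs Uty and Kdm5d, with DKO left of control; numbers are replicates, bars are mean and SD of 3 libraries, and axes start at 0. DKO replicate 3 and control replicate 2 are highest for both X-linked genes and at or near 0 for both Y-linked genes.

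The roles also differed between control libraries. All 8 H3K4 genes were lower in control replicate 3 than in control replicate 1, with log2 ratios between -0.41 and -0.14 and a median of -0.30. For 5 of the 6 PRC2 core genes the ratio was positive, and the median of the core was 0.22. Kmt2a shows the first pattern, with 207 CPM in control replicate 3 and 267 CPM in control replicate 1, and Ezh2 the second, with 339 and 278 CPM. These 2 roles had the most extreme medians of this ratio, and those of the other roles lay between -0.12 and 0.08. The ratio was not taken over all tested genes, so whether it is particular to these roles was not tested. The medians of the same 2 roles between the genotypes were -0.13 for both. Those compare 3 libraries with 3, and so are an unlike measure to a ratio of 2 single libraries.

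Among the other genes of these complexes there was no call either. Of 58 genes in the table, 57 were tested and 0 were called; 40 were negative and the median was -0.05 on the log2 scale. These were 14 genes listed with COMPASS, 6 further PRC2 genes (5 tested), 16 further PRC1 genes and 9 genes of H2A deubiquitination. The rest were 11 other SET genes and partners of DOT1L, and the 2 Y-linked paralogs. Kdm1a and Kdm1b in the COMPASS list are H3K4 demethylases and not COMPASS subunits. Their log2 fold changes were -0.11 and -0.15 (edgeR adjusted p = 0.484 and 0.439). Setd4, a SET-domain gene, came closest to a call, with 11.6, 10.7 and 10.01 CPM in DKO against 7.40, 6.999 and 7.28 CPM in controls. The groups lay well apart (log2 fold change 0.57, SE 0.13, edgeR adjusted p = 0.0544). In the COMPASS list the smallest p belonged to Psip1 and Ncoa6. Psip1, which tethers the KMT2A-menin complex to chromatin, had -0.24 (SE 0.08, edgeR adjusted p = 0.144). Ncoa6, of the KMT2C and KMT2D complexes, had -0.23 (SE 0.08, edgeR adjusted p = 0.158). Among PRC1 partners the smallest p belonged to Bcorl1 (-0.40, SE 0.12, adjusted p = 0.119) and Pcgf3 (-0.18, SE 0.07, adjusted p = 0.197). In the list of H2A deubiquitinases and their partners it was Foxk2 (-0.20, SE 0.07, adjusted p = 0.172) and Foxk1 (-0.18, SE 0.07, adjusted p = 0.182). Of the further PRC2 genes, Aebp2 (-0.14) and Epop (-0.13) led with adjusted p of 0.362 and 0.694. Aff4, a partner of the DOT1L-binding proteins, had -0.19 (SE 0.06, adjusted p = 0.156).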

How the data were processed

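RNA was measured in 3 DKO and 3 control libraries. The authors deposited whole-number read counts per gene symbol, not normalized. Reads were handled with STAR 2.7.10a, Trim Galore and Picard on mm10, per the submitters' processing notes. Which program counted them, with what strand setting and annotation, and whether duplicates were dropped is not given in those sources. The span from gene start to gene end, introns included, overlapped that of another annotated gene for 22 of the 48 members, 10 of them with a gene of the table. Overlap of exons was not examined, so whether their counts are affected is not known.

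The test was run in edgeR 4.0.16 (R 4.3.3). The filter was filterByExpr (minimum count 10, minimum total 15; 14555 of 21006 tested). Counts were scaled by TMM and tested with the robust quasi-likelihood test on group alone, 2-sided, with Benjamini-Hochberg adjustment over all tested genes and calls below 0.05. A standard error is the log2 fold change over the root of F, and 95% intervals use the moderated degrees of freedom. Limits for a count of 0 are 3 counts over the library total and cover counting error only. Transcript lengths are from GENCODE M21 (GRCm38). On simulated counts for DKO against control (14555 genes), 82 of 100 genes changed 2-fold and 97 of 100 changed 4-fold were called; 14 of 193 calls were unchanged genes.

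Alternatives were a replicate block, RLE factors, library size only, 2 other filters, DESeq2 1.42.0, limma-voom (limma 3.58.1), no robust moderation, a test against a 1.5-fold change, leaving out each library, and leaving out DKO replicate 3 and control replicate 2 together. Members, lists and alternatives were chosen with earlier results of these data known. The rule for named genes takes Ehmt1, Ehmt2 and every member, with every library for members with an unadjusted p below 0.05, without overlap between groups, or among the 2 most abundant per length of their role, and for other genes of the complexes the called or else the 2 with the smallest p per list. Values per library of Kmt2d, Ezh2 and Ring1, and which promoters to print, were chosen beyond that rule after values were seen.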

Additional observations from a re-analysis of the deposited data

How the results depend on the processing

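Over all genes, 438 were called (319 higher and 119 lower in DKO). The count was 1106 with DESeq2 (624 higher, 482 lower), 122 against a 1.5-fold change, 496 by library size alone (416 higher, 80 lower), 390 with limma-voom, and between 131 (without DKO replicate 1) and 1106 (without DKO replicate 3) when 1 library was left out. Without DKO replicate 2 it was 246, and without control replicates 1, 2 and 3 it was 155, 170 and 197. Of the members, 0 were called except 1 with DESeq2 and 3 without DKO replicate 3, a range of 0 to 3 on leaving out 1 library. Of the other genes of the complexes, 0 were called except 3 with DESeq2, 1 (Setd4) by library size alone, 1 (Setd4) without DKO replicate 3 and 1 (Bcorl1) without control replicate 3. Deviations of same-numbered libraries correlated at 0.05, -0.03 and 0.36, and those of DKO replicate 2 and control replicate 1 at 0.45. The labels do not say that the numbers mark a litter or day, so they were not taken as pairing. The replicate block gave 619 calls, 0 among members and -0.0031 for Pcgf6. Of 768 member values under the alternatives, 718 kept direction and side, 4 gained a call and 46 changed sign, in 16 members whose values were at most 0.08 in size. The changed values were, by library size alone, 0.045 for Kmt2b, 0.0080 for Ash1l, 0.079 for Smyd5, 0.052 for Cbx2, 0.060 for Kdm5b, 0.0025 for Kdm5c, 0.045 for Kdm6a, 0.037 for Kdm2a. They were 0.015 for Smyd5 with at least 1 CPM in 3 libraries, -4.92e-05 for Kmt5c, -0.0013 for Pcgf6 with no filter, and -0.18 for Pcgf6, 0.0066 for Cbx2, -0.12 for Kdm5a without DKO replicate 3 and control replicate 2 together. On leaving out 1 library, values were -0.18 to 0.019 for Ash1l, -0.080 to 0.022 for Cbx2, -0.0026 to 0.12 for Dot1l, -0.083 to 0.23 for Ezh1, -0.090 to 4.31e-04 for Kdm2a, -0.076 to 0.11 for Kdm5a, -0.086 to 0.034 for Kdm5b, -0.23 to 0.039 for Kdm5c, -0.37 to 0.23 for Kdm6a, -0.13 to 0.026 for Kmt2b, -0.15 to 0.034 for Kmt2c, -0.019 to 0.047 for Kmt5c, -0.14 to 0.10 for Pcgf6, -0.0028 to 0.049 for Smyd2, -0.020 to 0.12 for Smyd3, -0.12 to 0.056 for Smyd5. The cause was not tested. With 3 libraries a group, changes under 1.5-fold could be missed, and so could some larger ones. On simulated counts, 82 of 100 genes changed 2-fold were called.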

Other observations

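Genes known as Polycomb targets in other tissues were mostly low in both genotypes. Of 28 such genes on the list used, 11 were tested and 0 were called (edgeR), where 3.01% of all tested genes were called. Their log2 fold changes ranged from -0.49 to 1.45, with 5 negative, 6 positive and a median of 0.04. Only 1 of the 11 had an interval of the fold change within a 1.5-fold change in either direction. The median and the lack of calls therefore do not show that these genes were unchanged. The posterior Hox genes of the list were close to silent, and 8 genes of the list, all of them Hox genes, had no count in any library, which allows up to 0.0246 CPM over the 3 DKO and 0.0305 CPM over the 3 control libraries. Cdkn2a, the locus that Bmi1 is known to repress, had 4, 3 and 3 counts in DKO libraries, against 3, 0 and 0 counts in control libraries, too few to be tested. Its neighbour Cdkn2b averaged 1.37 ± 0.539 CPM in DKO libraries, against 0.904 ± 0.186 CPM in controls (SD, n = 3 each; log2 fold change 0.58, edgeR adjusted p = 0.370). The neural genes Pax6, Pax2, Nkx2-2 and Olig2 were highest in DKO replicate 3. So were Foxa2, at 3.24 CPM there, and Gata4 and Sox17, at 26 and 25 counts there. Pax7, Lhx2, Lhx9 and Gata6 were not highest in that library. Pax6 averaged 9.75 ± 7.62 CPM in DKO libraries, against 8.57 ± 2.64 CPM in controls.

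Genes of S phase were mostly slightly negative too, with 14 of 18 below 0, a median of -0.05 and 0 called. Their summed level was 3761 to 4153 CPM in DKO and 3805 to 4559 CPM in control libraries, and so overlapped. Of all tested genes with a mean of at least 100 CPM, 80.7% were below 0.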
